A study of Mus musculus with 10 samples.

Results

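The 42 genes described here encode the machinery that cuts pre-mRNA at its 3′ end, adds the poly(A) tail and ends transcription by RNA polymerase II. They were chosen by the known function of their products, not by their values, and fall into 8 groups: cleavage and polyadenylation specificity factor (CPSF) with Symplekin and Rbbp6 (8 genes), cleavage stimulation factor (CstF, 4 genes), cleavage factor I (CFI, 3 genes), cleavage factor II (CFII, 2 genes), poly(A) polymerases and poly(A)-binding proteins (5 genes), termination factors (4 genes), Integrator (11 genes) and histone mRNA processing (5 genes). In the data they have 92 of the 27344 annotated 3′ ends and are 42 of the 19375 named genes.

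RNA was sequenced from C57BL/6 mouse embryonic stem cells (ESC) of 3 groups, all grown with leukemia inhibitory factor and fetal calf serum on mitomycin C-treated embryonic fibroblasts or on gelatin. The groups were WT, DIDO3ΔE16 and DIDO3ΔCT+HADIDO3. DIDO3ΔE16 ESC are homozygous for loss of the floxed exon specific to DIDO3, the longest product of Dido1, from the DIDO-tm3Cmar allele through Tg(SOX2-Cre)1Amc, a Cre transgene that acts in the early embryo. DIDO3ΔCT+HADIDO3 ESC carry an older constitutive deletion of the C terminus that affects the same exon and were given HA-tagged DIDO3. These lines differ in their allele as well as in the added DIDO3, and DIDO3ΔCT ESC without HADIDO3 are not among the libraries, so the effects of the allele, the line and the added protein cannot be told apart. Each group had 3 libraries. Of the 4 WT samples in the labels, replicates 2 and 3 share a library and were joined as WT 2-3. Nothing in the labels says that libraries came from separate cultures, so p-values measure the spread between these libraries, which may be technical.

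Most eukaryotic mRNAs end where CPSF finds a hexamer such as AATAAA and its nuclease cuts a short way downstream, with CstF bound to a U- or GU-rich element beyond the cut. CFI, bound upstream, favors distal sites in many genes, and CFII links cleavage to termination through the C-terminal domain of RNA polymerase II. Poly(A) polymerase then adds the tail, while the exonuclease XRN2 degrades the RNA still being made behind the cut. Integrator cuts small nuclear RNAs and the RNA of paused polymerases, and replication-dependent histone mRNAs, which carry a stem-loop and no tail, are processed by their own set of factors. Several of the genes in this machinery, Pcf11 among them, are known to use more than 1 polyadenylation site themselves.

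The level of a 3′ end was its TPM, the share of reads per unit length and library, over the 3′ untranslated region (UTR) of a UCSC transcript plus 2 kb downstream. TPM was summed over features with the same 3′ end, and the ends of a gene are numbered from the most proximal, end 1, to the most distal. At 1 TPM the reads covered each base 0.434 to 0.775 times on average, depending on the library. Libraries were compared with limma on log2(TPM + 0.1) after scaling, so all log2 fold changes are on that scale and understate changes of low ends. An end was called higher or lower where its log2 fold change was 0.7 or more in size and its adjusted p (limma, Benjamini-Hochberg over all tested ends) was under 0.05. Of the 92 ends, 43 (46.7%) are listed once and share no base with another feature of their strand, against 57.1% of all ends. The other 49 hold more than 1 feature or share bases with another end. Where ends share bases, their level also depends on how reads were divided between them. Where features share an end their TPM was summed, yet single libraries could still stand apart. End 1 of Slbp, for example, had 173, 8.37 and 156 TPM in DIDO3ΔE16. Coding bases of their own gene are held by 35 of the 92 ends, and reads of other transcripts of the gene can add to these. In bulk samples, fewer cells of a type and less RNA per cell cannot be told apart.

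Dido1 was in keeping with the labels. Its most distal end, which covers the untranslated bases of the last, DIDO3-specific exon and none of its coding bases (chr2:180655963-180659338, mm10), had 17.9, 16.8 and 13.7 TPM in WT (libraries 1, 2-3 and 4, the order used throughout), 0.546, 0.511 and 0.307 TPM in DIDO3ΔE16 and 12.1, 11.5 and 10.9 TPM in DIDO3ΔCT+HADIDO3. End 1 of Dido1 was also lowest in DIDO3ΔE16, with 50.3 ± 1.64 TPM in WT, 6.62 ± 0.444 TPM in DIDO3ΔE16 and 44.8 ± 1.59 TPM in DIDO3ΔCT+HADIDO3. End 2 of Dido1 went the other way, with 4.82 ± 0.0709 TPM in WT, 89.5 ± 7.29 TPM in DIDO3ΔE16 and 8.13 ± 0.725 TPM in DIDO3ΔCT+HADIDO3. All 8 ESC markers, such as Pou5f1 and Sox2, had at least 1 TPM in every library. Some differed widely within a group. In WT, Nanog had 664, 676 and 3.1 TPM, Esrrb 30.7, 1180 and 29.8 TPM and Pou5f1 168, 180 and 484 TPM. Esrrb had 1950, 51.4 and 1730 TPM in DIDO3ΔCT+HADIDO3. Of 10 markers of the fibroblast feeder layer, 3 had at least 1 TPM in every library, and Lum and Dcn were below 1 TPM in all of them. The summed level of the 10 was 114 to 132 TPM in WT, 253 to 259 TPM in DIDO3ΔE16 and 63.6 to 68.0 TPM in DIDO3ΔCT+HADIDO3, so it differed between the groups. Whether this RNA came from feeder cells, and its part in the results, was not tested. Thy1, of the same list, went another way, with 18.1 to 19.7, 29.6 to 33.9 and 52.2 to 56.1 TPM. Libraries were grouped here into flow cell families by the first 4 characters of their names, which the labels do not call a batch. A family so made holds more than 1 flow cell. By this grouping, WT 1 and WT 4 fell in 1 family and WT 2-3 in the same family as all mutant libraries. The first family therefore held WT only, and within the second the mutants can be set against a single WT library. With the family as a covariate in limma, a fit in which the difference from WT rests on WT 2-3, 9 of 13 values called against WT were still called; the 4 others are named where they occur.

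All of the 42 genes except Ints2 had a TPM above 0. At the most abundant end of each gene, the mean TPM in WT ranged from 0 to 312 with a median of 52.3, against a median of 21.5 over all genes. Pabpc1, which encodes the main cytoplasmic poly(A)-binding protein, was the highest, with 312 ± 43.9 TPM in WT (SD, n = 3), 317 ± 33.5 TPM in DIDO3ΔE16 and 332 ± 10.7 TPM in DIDO3ΔCT+HADIDO3. CFI (median 122 TPM in WT), CFII (116 TPM, with the coding bases of Pcf11 given with that gene) and CstF (91.9 TPM) had the highest medians of the 8 groups, and histone processing (22.1 TPM) and Integrator (26.4 TPM) the lowest. These medians rest on 2 to 11 genes each, and their order was not tested. The most abundant end is not the most distal in every gene, as in Xrn2, Cpsf3 and Papola. Ints2, an Integrator subunit, was listed at 0 in every library, as was end 3 of Cpsf6, and these ends could not be tested. Paf1, Srrt and Wdr61, genes of general transcription and RNA metabolism outside the machinery, were also listed at 0 in all libraries, so a listed 0 may be a failed estimate and does not show that Ints2 is not expressed.

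In DIDO3ΔE16, few ends of the machinery differed from WT at the set thresholds. Of 87 ends tested, 3 were called higher (3.45%; 10.6% of all ends) and 1 lower (1.15%; 5.08% of all ends). Those higher were end 4 of Wdr33, end 3 of Scaf4 and end 1 of Ints6, and the lower one was end 2 of Scaf4. The median log2 fold change was -0.07, with -0.01 over all ends, and the median absolute log2 fold change was 0.271, with 0.365 over all ends. With no regard to size, 28 of the 87 ends (32.2%) had an adjusted p under 0.05 in limma, against 34.8% of all ends. Of the 40 most abundant ends that could be tested, 1 was called higher (11.8% of all genes at that end) and 0 lower (4.53%). The count of lower ends was 2 in place of 1 without WT 2-3, WT 4 or DIDO3ΔE16 3.

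In DIDO3ΔCT+HADIDO3, which share the WT libraries of that comparison, 1 of 87 ends was called higher than in WT (1.15%; 10.4% of all ends) and 5 were called lower (5.75%; 7.4% of all ends). End 3 of Ints10 was higher. The lower ends were end 1 of Sympk, Pabpc1 and Ints7 and both ends of Ints8. The median log2 fold change was -0.19, against -0.01 over all ends. An adjusted p under 0.05 (limma) was given by 27 ends (31.0%), against 40.1% of all ends. At the most abundant ends 0 of 40 were called higher (10.2% of all genes) and 1 was lower (8.19%). Without DIDO3ΔCT+HADIDO3 1 the lower count was 8, and without WT 4 the higher count was 2. Of the 87 ends tested against WT in both lines, 0 were called in both (5.45% of all ends tested in both).

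Between the lines the machinery differed more. With DIDO3ΔE16 set against DIDO3ΔCT+HADIDO3, a comparison that uses no WT library, 12 of 88 ends were called higher (13.6%; 14.3% of all ends) and 6 lower (6.82%; 13.8% of all ends). The median log2 difference was 0.11 (0.01 over all ends), and the median absolute difference was 0.387 (0.518 over all ends). At the most abundant ends, 6 of 40 were higher (15.7% of all genes) and 1 was lower (12.4%). In all 3 comparisons the shares of ends called were below or near those of all ends, so these counts do not set the machinery apart. Of 88 ends tested in at least 1 comparison, 19 (21.6%) were called at least once, against 35.5% of all ends. They belong to 14 genes and include 12 ends listed once, 6 that hold coding bases of their gene and 4 that overlap a feature of the opposite strand.

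**Figure D1:**
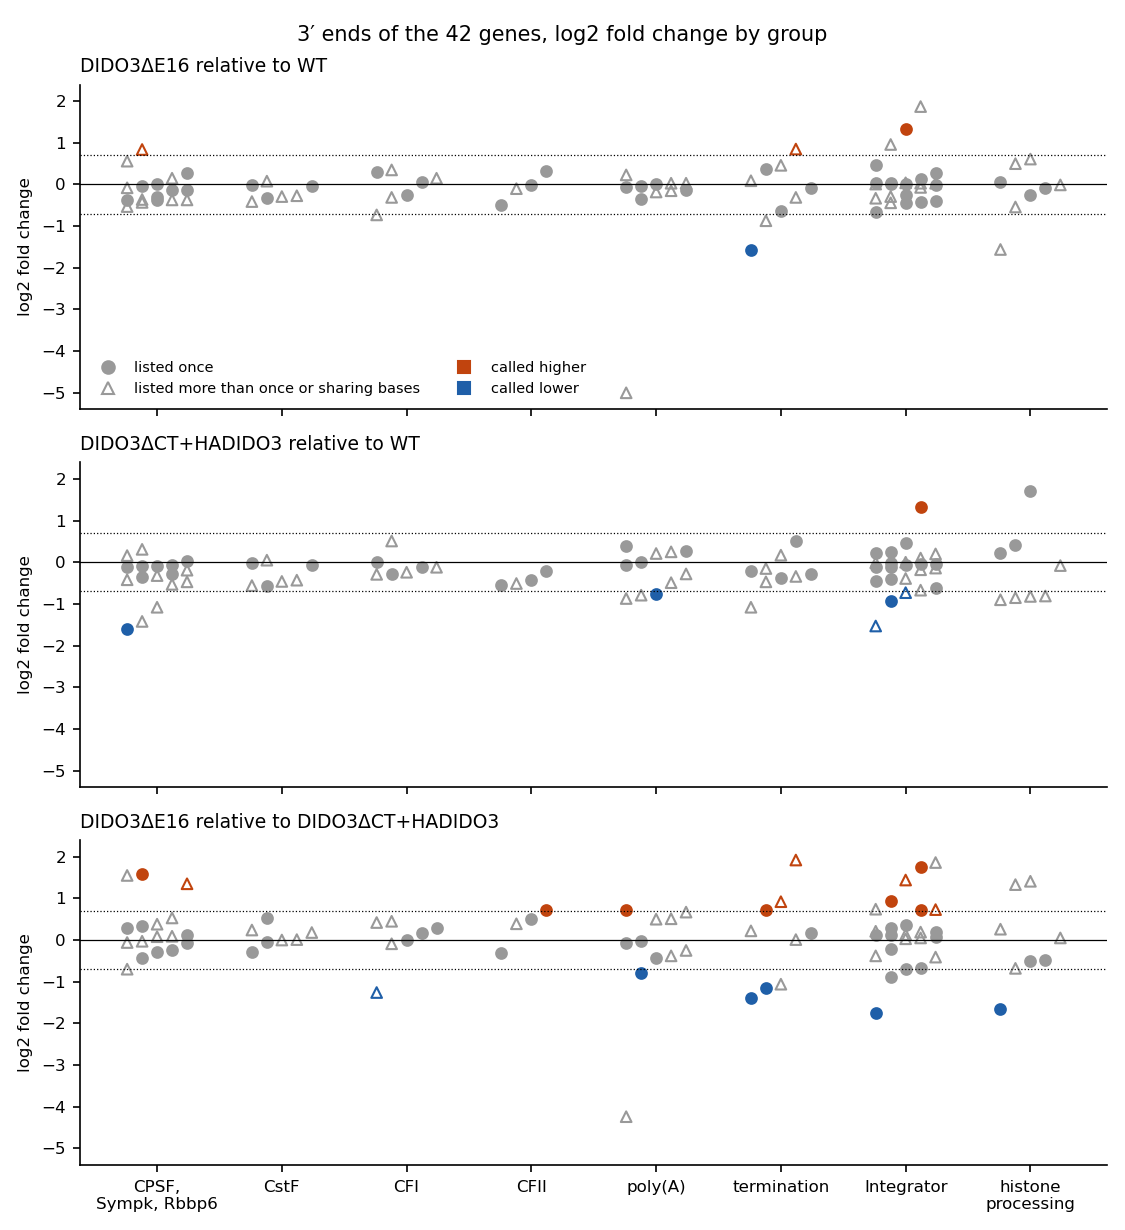
Log2 fold change (y axis) of each tested 3′ end of the 42 genes, by group (x axis), in DIDO3ΔE16 against WT, DIDO3ΔCT+HADIDO3 against WT and DIDO3ΔE16 against DIDO3ΔCT+HADIDO3. Circles are ends listed once, triangles ends listed more than once or sharing bases, and colors mark the 4, 6 and 18 ends called; most points lie near 0, and the farthest low points, of Pabpn1, were not called.

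Restricted to the 43 ends listed once, with the fit redone on such ends alone, 2 were called in DIDO3ΔE16 against WT (1 higher and 1 lower; 18.9% of all such ends in either direction), 4 in DIDO3ΔCT+HADIDO3 against WT (1 higher and 3 lower; 22.7%), and 12 between the lines (7 higher and 5 lower; 32.6%). This restriction was chosen after seeing the data. With TPM summed per gene, 41 genes were tested and 0 were called in DIDO3ΔE16 against WT (16.7% of all genes), 1 in DIDO3ΔCT+HADIDO3 against WT (18.6%) and 2 between the lines (28.2%). The exceptions were Ints8, with a log2 fold change of -0.96 in DIDO3ΔCT+HADIDO3 against WT (limma, adjusted p = 0.000558) and 1.06 in DIDO3ΔE16 against DIDO3ΔCT+HADIDO3 (adjusted p = 0.000319), and Ints7, with 0.75 in the latter (adjusted p = 0.000135). The other 12 genes with a called end were not called by their sum. Among them are Clp1 and Ints12, whose single ends differed between the lines by 0.70 and 0.69 in this fit, just under the threshold.

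Where a sequence was available at a called end, it was searched for AATAAA and ATTAAA and for no other signal. For 8 of the called ends, a GENCODE transcript (release M21, GRCm38) stops at the same base as the annotated end, and its last 30 bases are given 5′ to 3′ on the strand of the gene, with AATAAA or ATTAAA in capitals where present. Ends of Papola, which encodes poly(A) polymerase alpha (chr12:105814040-105814069, + strand), of Clp1 (chr2:84723122-84723151, - strand) and of Ints8 (chr4:11199158-11199187, - strand) hold a hexamer:
Papola end 2: ttcccacATTAAAagtaagaatgatgacct
Clp1 end 1: attattttAATAAAtatgattgtgatagaa
Ints8 end 2: gaggttaAATAAAtttccttaccaacaatt
In these, the hexamer starts 23, 22 and 23 bases from the end. Those of Pabpc1 (chr15:36603496-36603525, - strand), Ints7 (chr1:191609606-191609635, + strand), Ssu72 (chr4:155716649-155716678, + strand), Slbp (chr5:33634952-33634981, - strand) and Ints10 (chr8:68822482-68822511, + strand), all proximal or low ends, hold neither in this window:
Pabpc1 end 1: ttgattttttgtgtcctgtctcgaaaaacc
Ints7 end 1: ggctgggcccttcctcattaatcactaatt
Ssu72 end 1: agaagtaaaacaggctgaattttgtactgg
Slbp end 2: ccagacatacctataatgtctgtcctgggt
Ints10 end 3: atagaaatttctatatgtcttttcctttcc
Of the 92 ends, 40 could be matched to a transcript in this way, and 16 of them (40.0%) held a hexamer, 11 AATAAA (27.5%) and 5 ATTAAA (12.5%). Over all 13637 matched ends of the data, 57.3% held one, 45.7% AATAAA and 13.0% ATTAAA. A match is a description of the letters and not of a site in use.

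CPSF recognizes the hexamer and makes the cut, and of the 17 ends of its 8 genes, 2 were called in at least 1 comparison (11.8%; 35.5% of all ends), end 4 of Wdr33 and end 1 of Sympk. At the most abundant ends, the median log2 fold change of the group was -0.11 in DIDO3ΔE16 and -0.30 in DIDO3ΔCT+HADIDO3 against WT. Rbbp6, which encodes a ubiquitin ligase bound to the core, was the most abundant, with 272 ± 13.4 TPM in WT, 222 ± 8.97 TPM in DIDO3ΔE16 and 234 ± 8.81 TPM in DIDO3ΔCT+HADIDO3, log2 fold changes of -0.36 and -0.32 that were below the size threshold. That end, end 2, is a feature of 2002 bp with 1616 coding bases of Rbbp6, and the most distal end, end 3, had 18.9 ± 1.66 TPM in WT. Fip1l1, whose product ties CPSF to poly(A) polymerase, was the least abundant, with 29.8 ± 1.21 TPM in WT and 21.6 ± 1.42 TPM in DIDO3ΔE16. Its libraries of DIDO3ΔCT+HADIDO3 spread from each other by more than their mean (24.7 ± 29.5 TPM; log2 fold change against WT -1.08, limma adjusted p = 0.397). Cpsf3, which encodes the nuclease, had 83.4 ± 2.56, 79.5 ± 3.47 and 73.4 ± 2.68 TPM in WT, DIDO3ΔE16 and DIDO3ΔCT+HADIDO3 and was not called. That end, end 1, lies 6822 bp upstream of the end of the gene and holds 211 coding bases. Its end 2, at the end of the gene, had 23.9 ± 2.46, 19.3 ± 1.33 and 18.5 ± 2.23 TPM and was not called either. Cpsf2 and Cpsf4, a nuclease homolog and a zinc finger subunit that binds the hexamer, had log2 fold changes of -0.19 to 0.09 over the 3 comparisons.

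Wdr33 encodes the CPSF subunit that contacts the hexamer directly, together with Cpsf4. Its RNA was measured at 4 ends on the + strand of chromosome 18. End 4, the full-length end (chr18:31906943-31910987), had 44.5, 47.7 and 37.8 TPM in WT, 74.2, 83.6 and 84.5 TPM in DIDO3ΔE16 and 33.2, 30 and 32.9 TPM in DIDO3ΔCT+HADIDO3. The groups did not overlap, and DIDO3ΔE16 was the highest. The log2 fold change was 0.84 in DIDO3ΔE16 against WT (SE 0.10, limma adjusted p = 0.00236), -0.53 in DIDO3ΔCT+HADIDO3 against WT (adjusted p = 0.00976, under the size threshold) and 1.35 between the lines (SE 0.07, adjusted p = 8.78e-05). With flow cell family as a covariate the first was 0.69, just under the threshold. A feature of Sft2d3 lies within these bases on the opposite strand and was listed at 0 in every library. Reads of opposite strands cannot be told apart here, and a listed 0 may be a failed estimate. Reads of Sft2d3 may therefore be part of this level, which was not tested.

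The 3 other ends of Wdr33 lie 65755 to 78545 bp upstream of the end of the gene. End 1 (chr18:31827735-31830852) had 28.7, 28.7 and 29.5 TPM in WT, 23, 24.7 and 22.7 TPM in DIDO3ΔE16 and 25.7, 29.1 and 32.0 TPM in DIDO3ΔCT+HADIDO3. End 2 (chr18:31834048-31837435) had 19.6, 20.1 and 20.1 TPM in WT, 16.2, 15.2 and 16.9 TPM in DIDO3ΔE16 and 19.9, 23.8 and 22.2 TPM in DIDO3ΔCT+HADIDO3. Both were lowest in DIDO3ΔE16, without overlap with WT, each by a log2 fold change of -0.37 (adjusted p = 0.00535 and 0.0083 in limma), so they were not called. End 3 (chr18:31841484-31843642) was low, with 0.861 to 1.77 TPM in WT, 0.754 to 1.01 TPM in DIDO3ΔE16 and 1.11 to 1.90 TPM in DIDO3ΔCT+HADIDO3, and these ranges overlapped. Ends 1, 2 and 3 hold 174, 98 and 41 coding bases of the gene, so reads of longer Wdr33 transcripts can add to their levels. End 4 holds 50 coding bases. Summed over its ends, Wdr33 had log2 fold changes of 0.29 in DIDO3ΔE16 and -0.23 in DIDO3ΔCT+HADIDO3 against WT.

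Sympk encodes Symplekin, the scaffold that joins CPSF to CstF and also serves histone mRNA. Its most abundant end, end 2, was not called in any comparison, with 82.4 ± 3.19, 104 ± 6.89 and 83.5 ± 1.47 TPM in WT, DIDO3ΔE16 and DIDO3ΔCT+HADIDO3. End 1 (chr7:19030841-19034226), 22392 bp upstream of the end of the gene and listed once, had 3.75, 3.97 and 3.35 TPM in WT, 3.78, 3.96 and 3.97 TPM in DIDO3ΔE16, but 1.44, 1.12 and 1.2 TPM in DIDO3ΔCT+HADIDO3. All 3 libraries of the latter were below every other library. The log2 fold change was -1.59 against WT (SE 0.15, limma adjusted p = 0.00123), and DIDO3ΔE16 was higher than DIDO3ΔCT+HADIDO3 by 1.59 (SE 0.14, adjusted p = 0.000508). Cpsf1, the largest CPSF subunit, had 63.6 ± 35.6, 69.6 ± 32.6 and 25.1 ± 13.9 TPM in WT, DIDO3ΔE16 and DIDO3ΔCT+HADIDO3. Its log2 values were the largest among the most abundant ends of the group, -1.42 in DIDO3ΔCT+HADIDO3 against WT and 1.55 between the lines, but its libraries differed by up to 3.8-fold within a group and it was not called (limma adjusted p = 0.225 and 0.13).

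CstF binds downstream of the cut, and 0 of its 7 ends were called in any of the 3 comparisons in limma (35.5% of all ends were called in at least 1). The most abundant ends of its genes were those of Cstf1, with 167 ± 2.5 TPM in WT, 142 ± 3.0 TPM in DIDO3ΔE16 and 122 ± 6.16 TPM in DIDO3ΔCT+HADIDO3, and Cstf2, which encodes the RNA-binding subunit, with 96.4 ± 5.49, 75.7 ± 2.89 and 76.9 ± 4.7 TPM. For Cstf1, log2 fold changes against WT were -0.29 in DIDO3ΔE16 and -0.56 in DIDO3ΔCT+HADIDO3 (limma adjusted p = 0.00208 and 0.00151), below the size threshold. Cstf2t, an autosomal copy of Cstf2 that could share reads with it, had 87.4 ± 5.93, 90.4 ± 5.91 and 63.8 ± 1.63 TPM. Cstf3, whose product holds the complex together, was the least abundant (34.9 ± 0.339 TPM in WT), with log2 fold changes of -0.05 to -0.01 at that end over the 3 comparisons.

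CFI, made of Nudt21 with Cpsf6 or Cpsf7, had 1 end of 7 tested called in at least 1 comparison (14.3%; 35.5% of all ends). Nudt21, which binds UGUA elements, had 150 ± 11.6 TPM in WT, 163 ± 0.528 TPM in DIDO3ΔE16 and 148 ± 4.4 TPM in DIDO3ΔCT+HADIDO3. End 4 of Cpsf6 (chr10:117342667-117355937) had 54.2, 23.9 and 24 TPM in WT, 18.4, 17.2 and 24.4 TPM in DIDO3ΔE16 and 38.6, 43.3 and 67.1 TPM in DIDO3ΔCT+HADIDO3. The lines did not overlap, while WT spanned both; the log2 difference between the lines was -1.26 (SE 0.24, limma adjusted p = 0.00818). This feature shares bases with ends 2 and 3 of the gene. Cpsf7 was below the size threshold at all 3 ends.

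CFII consists of Pcf11 and Clp1, and the level of Clp1, an RNA kinase, followed the lines. Clp1 has 1 end, listed once (chr2:84721122-84723545). Its level was 51.7, 49.0 and 50.8 TPM in WT, 67.8, 64.8 and 65.2 TPM in DIDO3ΔE16 and 39.9, 41.3 and 39.4 TPM in DIDO3ΔCT+HADIDO3. The groups were fully apart, with WT in the middle: log2 fold changes against WT were 0.32 in DIDO3ΔE16 and -0.43 in DIDO3ΔCT+HADIDO3 (limma adjusted p = 0.00382 and 0.00163), and only the difference between the lines, 0.73 (SE 0.05, adjusted p = 0.000177), was called. Without DIDO3ΔCT+HADIDO3 3 that difference was 0.70 and fell just under the threshold. Pcf11, which binds the C-terminal domain of the polymerase, had 181 ± 5.41, 188 ± 13.0 and 134 ± 7.08 TPM at its most abundant end, end 2, and was not called (-0.54 in DIDO3ΔCT+HADIDO3 against WT, limma adjusted p = 0.00157). Of the 2001 bp of that feature, 1463 are coding bases of Pcf11 itself, and the most distal end, end 3, had 19.5 ± 3.05 TPM in WT.

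Among genes of the poly(A) tail, 2 of 11 tested ends were called in at least 1 comparison (18.2%; 35.5% of all ends), 1 each of Papola and Pabpc1. End 2 of Papola (chr12:105813296-105816069, with the ATTAAA shown above) had 7.87, 8.34 and 8.16 TPM in WT, 5.87, 6.87 and 7.12 TPM in DIDO3ΔE16 and 10.1, 12.9 and 12 TPM in DIDO3ΔCT+HADIDO3. The groups did not overlap, and the lines differed by -0.78 (SE 0.12, limma adjusted p = 0.00362). The most abundant end of Papola, end 1, differed in the same direction by -0.43, under the size threshold. It lies 29235 bp upstream of the end of the gene, where end 4 had 15.7 ± 5.84, 16.1 ± 10.6 and 8.95 ± 2.19 TPM and was not called. Papolg, which encodes a related nuclear poly(A) polymerase, was not called at any of its 3 ends.

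End 1 of Pabpc1 (chr15:36601496-36605437) had 126, 126 and 129 TPM in WT, 136, 133 and 129 TPM in DIDO3ΔE16 and 81.6, 82.5 and 79.8 TPM in DIDO3ΔCT+HADIDO3. The last group was lower than all other libraries, by a log2 fold change of -0.75 against WT (SE 0.04, limma adjusted p = 0.000276), while the lines differed by 0.73 (SE 0.04, adjusted p = 0.000147; 0.69 without DIDO3ΔCT+HADIDO3 3). This proximal end includes 140 coding bases of Pabpc1 in the 2 kb added to it. Against WT the change was -0.64, under the threshold, with no scaling or with quantile normalization. Of the other genes, Pabpc4 was not called. Pabpn1, the nuclear poly(A)-binding protein gene, has 3 overlapping ends between which TPM moved from library to library, and their sum also had 1 library far from the others: 369, 417 and 367 TPM in WT, 23.1, 420 and 441 TPM in DIDO3ΔE16 and 402, 458 and 361 TPM in DIDO3ΔCT+HADIDO3.

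Of 9 ends of termination factors, 5 were called between the lines (28% of all ends, in either direction), all of Scaf4 and Ssu72. Scaf4 and its homolog Scaf8 encode proteins that bind the polymerase and keep it from using early polyadenylation sites. Scaf4 has 3 ends on the - strand of chromosome 16. Of these, end 1 holds 290 coding bases of the gene, and end 3 lies 3464 bp upstream of the end of the gene. End 1 (chr16:90253869-90258687) had 28.7, 26.9 and 23 TPM in WT, 34.7, 36.8 and 34.5 TPM in DIDO3ΔE16 and 20.9, 21.8 and 22.3 TPM in DIDO3ΔCT+HADIDO3, with no overlap between groups. It was called only between the lines, at 0.72 (SE 0.04, limma adjusted p = 0.000153; 0.70 and not called without DIDO3ΔE16 2).

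End 2 of Scaf4 (chr16:90240326-90242455), listed once, went the other way. Its level was 19.3, 18.1 and 14.5 TPM in WT, 6.02, 7.09 and 5.03 TPM in DIDO3ΔE16 and 14.2, 16.1 and 18.1 TPM in DIDO3ΔCT+HADIDO3. DIDO3ΔE16 was below all other libraries, by -1.57 against WT (SE 0.17, limma adjusted p = 0.00193) and -1.39 against DIDO3ΔCT+HADIDO3 (SE 0.15, adjusted p = 0.0011), while WT and DIDO3ΔCT+HADIDO3 overlapped (-0.20, adjusted p = 0.278). End 3, the most distal (chr16:90227144-90229297), had 19.4, 20.4 and 17.5 TPM in WT, 34.9, 36.8 and 36.7 TPM in DIDO3ΔE16 and 5.60, 12.2 and 13.0 TPM in DIDO3ΔCT+HADIDO3. It rose in DIDO3ΔE16 by 0.85 against WT (SE 0.06, adjusted p = 0.000727) and by 1.92 against DIDO3ΔCT+HADIDO3 (SE 0.33, adjusted p = 0.00604). In DIDO3ΔCT+HADIDO3 it was at -1.08 against WT, missing the threshold (adjusted p = 0.0507), and at -0.71 and called without DIDO3ΔCT+HADIDO3 1. End 3 sums 5 features, and when each feature was fitted on its own the most abundant of them was not called in either comparison (0.35 and 1.61, limma adjusted p = 0.359 and 0.0916). It overlaps a feature of Sod1 on the opposite strand, which had 37.5 to 42.5 TPM in WT, 44.4 to 54.1 TPM in DIDO3ΔE16 and 28 to 40.9 TPM in DIDO3ΔCT+HADIDO3 and was not called. Summed over its ends, Scaf4 had log2 fold changes of 0.23 in DIDO3ΔE16 and -0.47 in DIDO3ΔCT+HADIDO3 against WT, and was not called.

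Ssu72 encodes a phosphatase of the polymerase's C-terminal domain that acts with CPSF and Symplekin. Its most abundant end, end 2 (chr4:155732112-155734186), had 107, 107 and 116 TPM in WT, 166, 155 and 154 TPM in DIDO3ΔE16 and 84.7, 83.8 and 86.5 TPM in DIDO3ΔCT+HADIDO3. That end holds 99 coding bases of the gene and shares bases with end 3. Exons of 1500002C15Rik on the opposite strand overlap its added 2 kb, and their part in the level was not tested. End 1 (chr4:155715628-155718678), listed once, had 19.8, 18.4 and 15.4 TPM in WT, 12.1, 10.3 and 13.8 TPM in DIDO3ΔE16 and 27.8, 26 and 27.6 TPM in DIDO3ΔCT+HADIDO3. At both ends the 3 groups were fully apart, in opposite order: the lines differed by 0.92 at end 2 (SE 0.04, limma adjusted p = 8.53e-05) and by -1.15 at end 1 (SE 0.12, adjusted p = 0.000831). Against WT neither end passed the size threshold in either line (0.46 and -0.47 at end 2, -0.63 and 0.50 at end 1), although end 1 was called in DIDO3ΔE16 without WT 4 (-0.73, limma adjusted p = 0.0239) or DIDO3ΔE16 3 (-0.72, adjusted p = 0.0257). Xrn2, the termination exonuclease, had 71.6 ± 7.03, 70.7 ± 1.91 and 63.4 ± 4.85 TPM at its most abundant end, end 1. That end lies 43130 bp upstream of the end of the gene and holds 177 coding bases. Its end 2, at the end of the gene, had 50.2 ± 3.89, 42.3 ± 3.05 and 42.8 ± 7.29 TPM, with -0.31 in DIDO3ΔE16 against WT (limma adjusted p = 0.0247). Neither end of Xrn2 was called, and nor was Scaf8.

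Integrator, the largest of the groups, had 25 tested ends, of which 7 were called in at least 1 comparison (28%; 35.5% of all ends), on Ints6, Ints7, Ints8, Ints10 and Ints12. Ints3, whose product also belongs to a single-stranded DNA-binding complex, was the most abundant, with 111 ± 2.35, 94.7 ± 5.34 and 127 ± 3.89 TPM. The ends of Ints7 were both higher in DIDO3ΔE16 than in DIDO3ΔCT+HADIDO3, and end 1 holds 138 coding bases of the gene. End 1 (chr1:191608087-191611635), listed once, had 33.8, 32.3 and 29.6 TPM in WT, 33.0, 35.3 and 33.9 TPM in DIDO3ΔE16 and 19.4, 16.1 and 18.5 TPM in DIDO3ΔCT+HADIDO3. It was lower in DIDO3ΔCT+HADIDO3 than in all other libraries, by -0.93 against WT (SE 0.09, limma adjusted p = 0.00135), and the lines differed by 0.94 (SE 0.08, adjusted p = 0.000516). End 2 (chr1:191621465-191625690) had 12.9, 77.7 and 77.8 TPM in WT, 83.9, 86.1 and 90.4 TPM in DIDO3ΔE16 and 54.4, 51.8 and 52.5 TPM in DIDO3ΔCT+HADIDO3. WT 1 stood apart there, and the log2 fold change of DIDO3ΔCT+HADIDO3 against WT was 0.20 with it and -0.67 without it. The lines, which do not use WT, differed by 0.73 (SE 0.04, adjusted p = 0.00016), but in a joint fit of the 3 groups by 0.75 with an adjusted p of 0.395.

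Ints8 has 2 ends that overlap each other on the - strand and a feature of Ccne2 on the opposite strand. End 1 (chr4:11200928-11204466) had 29.8, 23.8 and 25.5 TPM in WT, 37.0, 14.7 and 40.6 TPM in DIDO3ΔE16 and 17.8, 14.6 and 18.9 TPM in DIDO3ΔCT+HADIDO3. End 2 (chr4:11197158-11204466, with the AATAAA shown above) had 14.0, 18.4 and 14.3 TPM in WT, 12, 29.6 and 10.2 TPM in DIDO3ΔE16 and 4.78, 6.30 and 6.12 TPM in DIDO3ΔCT+HADIDO3. The sum of both was steadier, with 43.8, 42.2 and 39.9 TPM in WT, 49.0, 44.4 and 50.9 TPM in DIDO3ΔE16 and 22.6, 20.9 and 25 TPM in DIDO3ΔCT+HADIDO3, the last group being below all other libraries. End 1 fell by 0.73 on the log2 scale in DIDO3ΔCT+HADIDO3 against WT (limma adjusted p = 0.00853), but by 0.65 without WT 1, 0.62 without DIDO3ΔCT+HADIDO3 2 and 0.59 with flow cell family as a covariate, which are under the threshold. End 2 fell by 1.53 (SE 0.16, adjusted p = 0.00159). The lines differed at end 2 by 1.44 (SE 0.43, adjusted p = 0.04), a call that was lost without DIDO3ΔE16 1 (1.61, adjusted p = 0.0657) or without DIDO3ΔCT+HADIDO3 1, 2 or 3 (1.32, 1.5 and 1.47, adjusted p = 0.118, 0.0915 and 0.0975). The feature of Ccne2 had 1.03 to 16 TPM over the 9 libraries and was not called.

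End 3 of Ints10 (chr8:68822255-68824511), 9156 bp upstream of the end of the gene and listed once, was the only end called higher in DIDO3ΔCT+HADIDO3 than in WT. Its level was 13.7, 9.92 and 9.78 TPM in WT, 8.73, 8.45 and 8.57 TPM in DIDO3ΔE16 and 27.2, 26.5 and 36.2 TPM in DIDO3ΔCT+HADIDO3. The last group was above all other libraries, by 1.32 against WT (SE 0.17, limma adjusted p = 0.00344), and the lines differed by -1.76 (SE 0.12, adjusted p = 0.000234). The end holds 78 coding bases of Ints10. The most abundant end of the gene, end 2, had 17.7 ± 0.898, 19.1 ± 1.44 and 19 ± 0.495 TPM and log2 fold changes of no more than 0.04 over the 3 comparisons.

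Ints12, which encodes a small subunit with a PHD finger, has 1 end, listed once (chr3:133109420-133112985). Exons of Arhgef38 on the opposite strand overlap its added 2 kb, and their part in the level was not tested. The end of Ints12 had 9.61, 8.42 and 9.57 TPM in WT, 10.4, 10.8 and 10.5 TPM in DIDO3ΔE16 and 7.22, 5.98 and 6.17 TPM in DIDO3ΔCT+HADIDO3, with no overlap between groups. It was called only between the lines, at 0.72 (SE 0.10, limma adjusted p = 0.00264), and not without DIDO3ΔCT+HADIDO3 2 (0.67) or 3 (0.68). Ints6 end 1 (chr14:62755615-62759191) lies 81285 bp upstream of the end of the gene and was low throughout. It had 1.25, 0.862 and 0.580 TPM in WT, 1.98, 2.49 and 2.81 TPM in DIDO3ΔE16 and 0.398, 0.656 and 1.04 TPM in DIDO3ΔCT+HADIDO3. DIDO3ΔE16 was above all other libraries, by 1.33 against WT (SE 0.29, limma adjusted p = 0.0204) and 1.75 against DIDO3ΔCT+HADIDO3 (SE 0.33, adjusted p = 0.00836). The call against WT was lost without WT 2-3, DIDO3ΔE16 2 or DIDO3ΔE16 3 (adjusted p = 0.0544, 0.0641 and 0.066) and with flow cell family as a covariate (adjusted p = 0.121). The other tested subunits, among them Ints9, whose product pairs with the catalytic subunit (39.0 ± 0.497, 41.1 ± 1.22 and 37.9 ± 0.914 TPM at its most abundant end), were not called at any end.

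**Figure D2:**
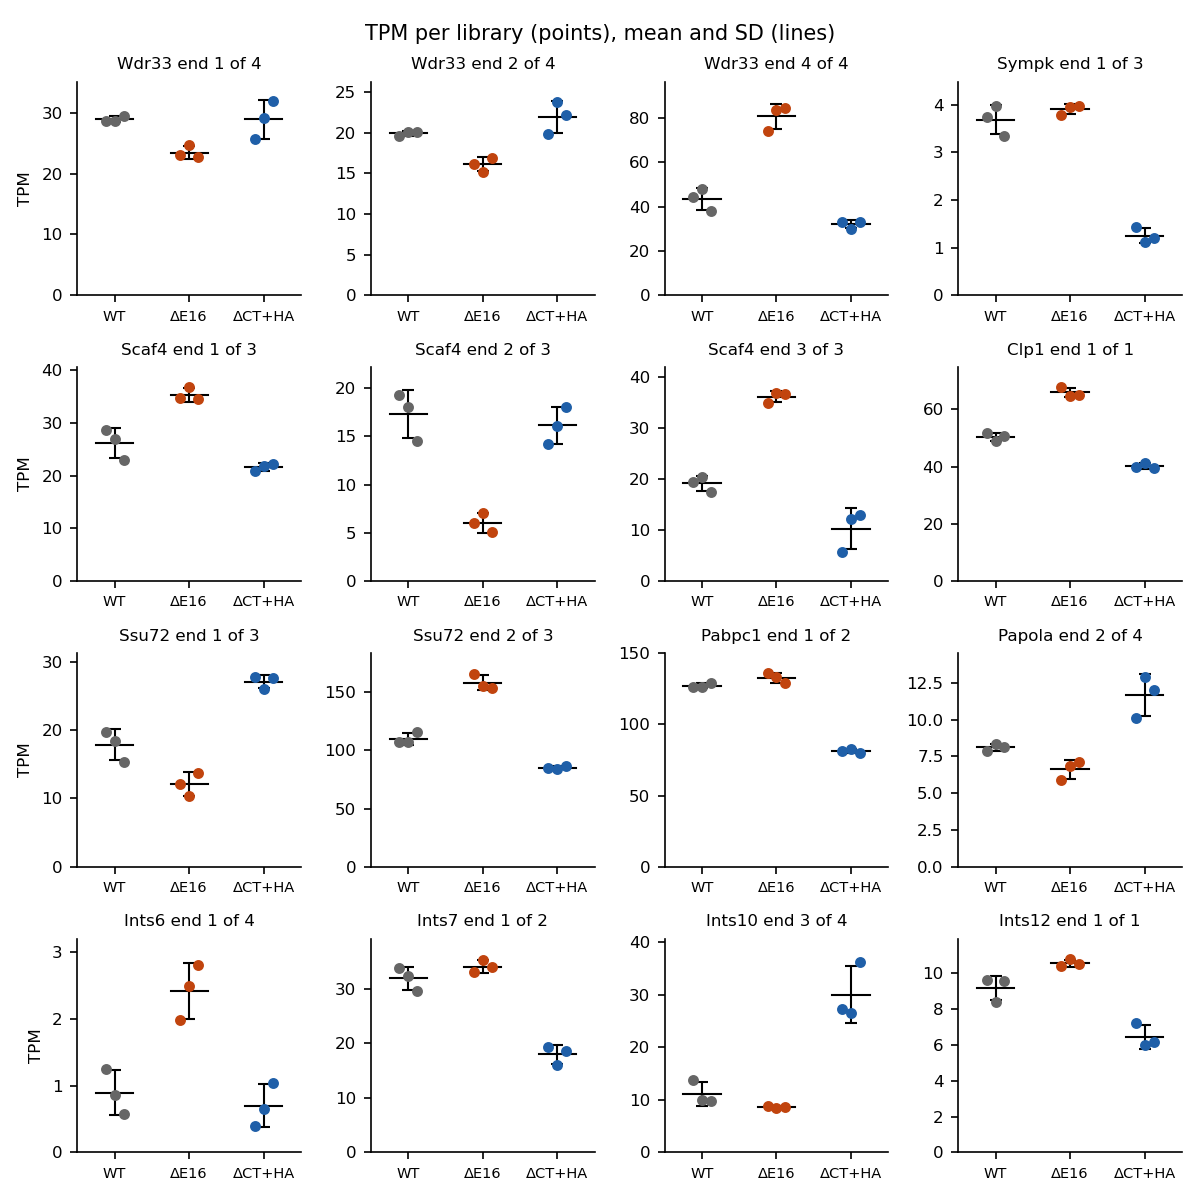
TPM (y axis, from 0) of 16 3′ ends (14 called ends and ends 1 and 2 of Wdr33) in each of the 3 libraries of WT, DIDO3ΔE16 (ΔE16) and DIDO3ΔCT+HADIDO3 (ΔCT+HA) (x axis), with the mean and SD as lines. At Clp1 the 3 groups lie apart with WT in the middle; at Scaf4 end 2 the DIDO3ΔE16 libraries (5.03 to 7.09 TPM) lie below all others (14.2 to 19.3 TPM).

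Histone processing factors had 1 end of 8 tested called in at least 1 comparison (12.5%; 35.5% of all ends). Slbp, which encodes the protein that binds the stem-loop of histone mRNA, was measured almost entirely at end 1 (172 ± 12.6, 112 ± 90.5 and 126 ± 81.0 TPM), where 3 features share bases and single libraries stood apart. Its end 2 (chr5:33632952-33635133) was low, with 0.489, 0.594 and 0.004 TPM in WT, 0.241, 0.276 and 0.308 TPM in DIDO3ΔE16 and 1.18, 1.07 and 1.04 TPM in DIDO3ΔCT+HADIDO3. DIDO3ΔCT+HADIDO3 was above all other libraries, and the lines differed by -1.66 (SE 0.18, limma adjusted p = 0.000978; -1.64 and 0.0801 in a joint fit of the 3 groups). Against WT the log2 fold change was 1.70 (adjusted p = 0.149), and 0.82 and called without WT 4. Lsm11, a subunit of the U7 particle that guides the cut, had 21.5 ± 0.964, 18.8 ± 0.621 and 26.9 ± 1.36 TPM, below the size threshold in each comparison. Casp8ap2, the least abundant of the group (7.54 ± 1.34 TPM in WT), had log2 fold changes of -0.08 to 0.05 at its most abundant end, and Lsm10 and Zfp473 were not called.

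The balance of ends within a gene was compared as the ratio of TPM at the most distal end to TPM at the ends that share no base with it. No scaling between libraries is needed for it. Each end includes 2 kb downstream, and some hold coding bases, so the ratio does not separate choice of end from reads past an end. The ratio could be tested in 25 of the 28 genes with 2 or more ends. In DIDO3ΔE16 against WT, 2 genes shifted toward the distal end (7.34% of all genes tested shifted this way) and 0 toward proximal ends (2.72%). In DIDO3ΔCT+HADIDO3 against WT, 1 shifted toward the distal end (2.47%) and 0 toward proximal ends (8.18%). In DIDO3ΔE16 against DIDO3ΔCT+HADIDO3, 2 shifted toward the distal end (19%) and 2 toward proximal ends (4.32%). In the comparison with DIDO3ΔCT+HADIDO3, this count was 2 in all, in place of 4, without DIDO3ΔE16 2.

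In DIDO3ΔE16, the distal share of Wdr33 and Scaf4 was higher than in WT. Both distal ends overlap a feature of the opposite strand, of Sft2d3 and of Sod1. Most bases of the distal feature of Wdr33 lie beyond the end of the gene in GENCODE. For Wdr33, the distal end held 47.5%, 48.5% and 42.8% of the TPM of the compared ends in WT, 65.0%, 67.1% and 67.6% in DIDO3ΔE16 and 41.3%, 35.7% and 36.9% in DIDO3ΔCT+HADIDO3. The groups did not overlap, and the shift on the log2 scale was 1.21 in DIDO3ΔE16 against WT (SE 0.13, limma adjusted p = 0.00492), -0.49 in DIDO3ΔCT+HADIDO3 against WT (adjusted p = 0.0924) and 1.70 between the lines (SE 0.12, adjusted p = 0.000809). For Scaf4, the distal share was 28.8%, 31.1% and 31.8% in WT, 46.2%, 45.6% and 48.2% in DIDO3ΔE16 and 13.7%, 24.4% and 24.3% in DIDO3ΔCT+HADIDO3. This shift was 0.98 against WT (SE 0.11, adjusted p = 0.00641; 0.95 and adjusted p = 0.0563 with flow cell family as a covariate) and 1.77 between the lines (SE 0.31, adjusted p = 0.0118), while DIDO3ΔCT+HADIDO3 was at -0.78 against WT (adjusted p = 0.171).

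Pabpc1 and Cpsf6 had their highest distal share in DIDO3ΔCT+HADIDO3. For Pabpc1, both of whose ends are listed once, the distal share was 73.1%, 67.5% and 72.1% in WT, 71.9%, 67.9% and 71.3% in DIDO3ΔE16 and 79.7%, 80.3% and 81.0% in DIDO3ΔCT+HADIDO3, which was above all other libraries. The shift was 0.74 against WT (SE 0.13, limma adjusted p = 0.0246) and -0.78 between the lines (SE 0.11, adjusted p = 0.00544), with the change lying in end 1, since end 2 had log2 fold changes of -0.04, 0.00 and -0.06 in the 3 comparisons. Without 1 library the call against WT was lost in 5 of 6 cases: WT 2-3 (0.63), WT 4 (adjusted p = 0.0624) and DIDO3ΔCT+HADIDO3 1, 2 and 3 (adjusted p = 0.0704, 0.0821 and 0.0793); the difference between the lines was -0.70 and not called without DIDO3ΔE16 2. For Cpsf6 only end 1 was compared with the distal end, since ends 2 and 3 share bases with the latter. End 2, so left out, had 21.1 ± 3.32 TPM in WT, 24.3 ± 0.947 TPM in DIDO3ΔE16 and 18.5 ± 3.15 TPM in DIDO3ΔCT+HADIDO3. The distal share of Cpsf6 against end 1 was 91.3%, 82.1% and 88.4% in WT, 76.8%, 77.0% and 78.8% in DIDO3ΔE16 and 88.6%, 89.7% and 93.9% in DIDO3ΔCT+HADIDO3. Its shift between the lines was -1.55 (SE 0.29, adjusted p = 0.0142; 0.0513 without DIDO3ΔE16 2), and neither line was called against WT (-1.04 and 0.51).

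**Figure D3:**
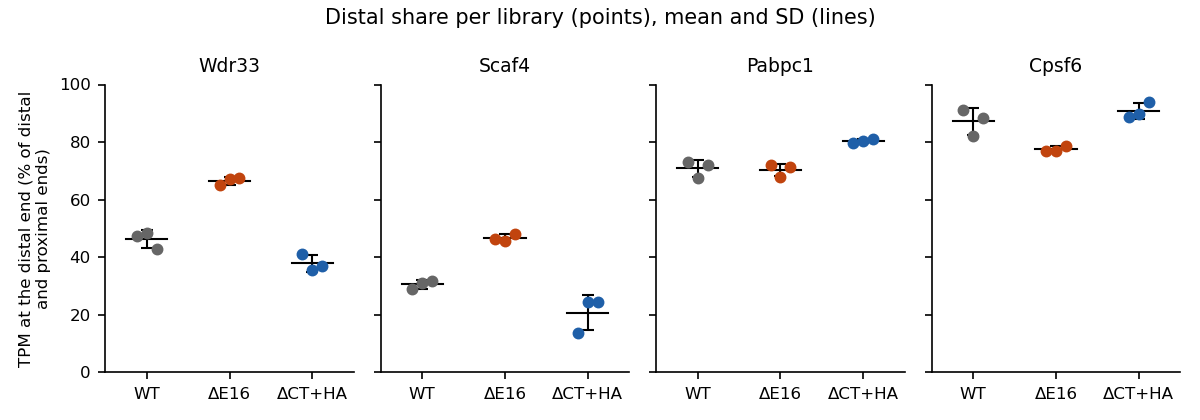
TPM at the most distal 3′ end as a percentage of TPM at the distal and the compared proximal ends (y axis, 0 to 100) of the 4 genes with a called shift, in each library of WT, DIDO3ΔE16 (ΔE16) and DIDO3ΔCT+HADIDO3 (ΔCT+HA) (x axis), with the mean and SD as lines. The DIDO3ΔE16 libraries are the highest for Wdr33 (65.0% to 67.6%) and Scaf4 (45.6% to 48.2%), and the DIDO3ΔCT+HADIDO3 libraries are the highest for Pabpc1 (79.7% to 81.0%).

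Libraries of a group differed most at ends that are not listed once. Among ends of the machinery with a mean of at least 1 TPM, the highest library of a group was a median of 1.21 times the lowest at the 40 ends listed once (taking the widest of the 3 groups), and 1 of them (2.5%), end 1 of Ints6, exceeded 2-fold. At the 43 other ends the median was 1.49-fold, and 20 (46.5%) exceeded 2-fold. Over all ends of the data these shares were 11.1% and 43.5%. Slbp end 1, Cpsf1, Lsm10, Zfp473, Fip1l1 end 2 and Ints7 end 2 were among those over 2-fold.

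**Figure D4:**
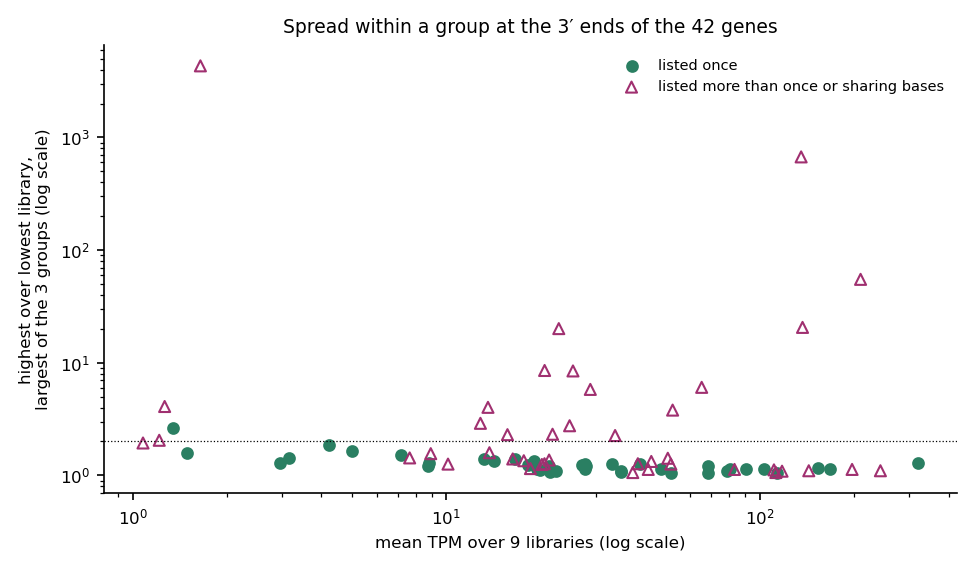
Highest over lowest library within a group, the largest of the 3 groups (y axis, log scale), against mean TPM over 9 libraries (x axis, log scale), for ends of the 42 genes with a mean of at least 1 TPM. Filled circles are ends listed once, of which 1 of 40 exceeds 2-fold (dotted line), and open triangles the other ends, of which 20 of 43 do.

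Other genes of the same pathways were counted at their most abundant end, from 6 lists with 79 symbols, 69 of them found: further Integrator subunits, elongation factors and kinases, termination and R-loop helicases, nuclear RNA decay, poly(A) tail and histone mRNA. In DIDO3ΔE16 against WT, 3 of 65 were called higher and 3 lower (11.8% and 4.53% of all genes at that end), with a median log2 fold change of -0.10. In DIDO3ΔCT+HADIDO3 against WT, 2 of 64 were higher and 1 was lower (10.2% and 8.19% of all genes; median -0.10). Between the lines 3 of 64 were higher and 3 lower (15.7% and 12.4% of all genes; median 0.08). Genes called in at least 2 comparisons were Rprd2, Ttf2, Mtrex, Nelfe and Snrpf. Ttf2, which encodes a helicase that releases the polymerase, had 247, 230 and 228 TPM in WT, 95.3, 97.0 and 94.7 TPM in DIDO3ΔE16 and 252, 243 and 248 TPM in DIDO3ΔCT+HADIDO3, a log2 fold change of -1.36 in DIDO3ΔE16 against WT (limma adjusted p = 5.5e-05) and -0.03 in DIDO3ΔCT+HADIDO3. Mtrex, the helicase of the nuclear exosome, had 77.8, 80.3 and 79.3 TPM in WT, 127, 134 and 130 TPM in DIDO3ΔE16 and 35.6, 36.6 and 37.7 TPM in DIDO3ΔCT+HADIDO3. These groups did not overlap, and the log2 fold change was -1.21 in DIDO3ΔCT+HADIDO3 against WT (adjusted p = 8e-05) and 1.85 between the lines (adjusted p = 1.1e-05).

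Rprd2, whose product binds the C-terminal domain of the polymerase, had 40.4, 43.8 and 40.1 TPM in WT, 5.68, 13.6 and 4.82 TPM in DIDO3ΔE16 and 76.1, 76.2 and 79.9 TPM in DIDO3ΔCT+HADIDO3. It was called in all 3 comparisons, at -2.57 in DIDO3ΔE16 and 0.80 in DIDO3ΔCT+HADIDO3 against WT and -3.39 between the lines (limma adjusted p = 0.00813, 0.000351 and 0.00199). Nelfe, a subunit of the pausing factor NELF, had 25.2, 22.6 and 22.9 TPM in WT, 40.2, 38.6 and 41.9 TPM in DIDO3ΔE16 and 23.8, 22.3 and 24.6 TPM in DIDO3ΔCT+HADIDO3. It rose in DIDO3ΔE16 by 0.71 against WT and 0.79 against DIDO3ΔCT+HADIDO3 (adjusted p = 0.000893 and 0.000255). Snrpf, which encodes a protein of the Sm ring, was low at this end (0.256 to 0.899 TPM in WT, 1.59 to 2.35 TPM in DIDO3ΔE16 and 0.236 to 1.05 TPM in DIDO3ΔCT+HADIDO3) and rose in DIDO3ΔE16 by 1.60 against WT (adjusted p = 0.0353). The features of Rprd2 and Nelfe are not listed once, and the stability of these 5 genes under other settings was not tested.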

How the data were processed

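RNA-seq libraries of WT, DIDO3ΔE16 and DIDO3ΔCT+HADIDO3 ESC were analysed (9 libraries, 3 per group). The authors aligned stranded reads to mm10 with BWA (0.7.15, per the submitters' processing notes), and, after duplicates were removed with Picard, quantified UCSC 3′UTRs extended by 2 kb with StringTie (1.3.3), without assembling new transcripts. No strand option appears in its command, so reads of opposite strands cannot be told apart here. TPM values were deposited by the authors for each of 43031 features, without scaling between libraries. The other text deposited per feature holds its position and mean coverage, used for depth only (1.463 to 2.615 Gb in features per library). The authors tested with edgeR, which needs counts. Since the values used here are TPM, limma took its place.

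Features were named by GENCODE M21 and grouped by 3′ end, and their TPM was summed. Libraries were brought to a common scale with a trimmed mean of their log2 ratios, leaving out 30% on either side. Ends with TPM above 0 in every library of a comparison were fitted on log2(TPM + 0.1) with limma (3.58.1, R 4.3.3; trend and robust, 2-sided), adjusted by Benjamini-Hochberg over all ends tested. Tables used Python (3.11.15) with pandas (2.3.3) and numpy (2.4.6), and plots matplotlib (3.10.9). The distal share was tested likewise on the log2 ratio of distal to proximal TPM, each with 0.1 added. The procedure was tested on simulated data.

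Every gene of the machinery was accounted for. Values of each library were given for called ends, for every end of Wdr33 and for genes with a called shift of the distal share, and other genes were given at their most abundant end, with examples per group. Genes of the other lists were named if called in 2 comparisons. The genes, lists and tests were chosen with earlier results of these data known. The alternatives were pseudocounts of 0.01 and 1, other filters, no scaling, quantile normalization, each feature on its own, TPM per gene, flow cell family as a covariate, a joint fit of the 3 groups, an adjusted p of 0.01, a replicate block, leaving out each library and, chosen after seeing the data, only ends listed once.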

Additional observations from a re-analysis of the deposited data

Results flagged for a closer look

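The ends and shares below differed between DIDO3ΔE16 and DIDO3ΔCT+HADIDO3 by a direct test of 1 line against the other, which uses no WT library (limma, adjusted p under 0.05 and an absolute log2 difference of at least 0.7). The values are log2 differences, DIDO3ΔE16 minus DIDO3ΔCT+HADIDO3. The lines differ in allele as well as in the added HADIDO3, and these cannot be told apart.

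Higher in DIDO3ΔE16 were end 3 of Scaf4 (1.92), end 1 of Ints6 (1.75), end 1 of Sympk (1.59), end 2 of Ints8 (1.44), end 4 of Wdr33 (1.35), end 1 of Ints7 (0.94), end 2 of Ssu72 (0.92), Clp1 (0.73), end 1 of Pabpc1 (0.73), end 2 of Ints7 (0.73), end 1 of Scaf4 (0.72) and Ints12 (0.72). Higher in DIDO3ΔCT+HADIDO3 were end 3 of Ints10 (-1.76), end 2 of Slbp (-1.66), end 2 of Scaf4 (-1.39), end 4 of Cpsf6 (-1.26), end 1 of Ssu72 (-1.15) and end 2 of Papola (-0.78). The distal share was higher in DIDO3ΔE16 for Scaf4 (1.77) and Wdr33 (1.70), and higher in DIDO3ΔCT+HADIDO3 for Cpsf6 (-1.55) and Pabpc1 (-0.78). Of these 22 differences, 7 were lost without 1 of the libraries: those of Clp1, end 1 of Pabpc1, end 1 of Scaf4, end 2 of Ints8, Ints12 and the shares of Cpsf6 and Pabpc1.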

How the results depend on the processing

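Of 35 called values, 25 stayed called without each library in turn and 10 did not. None of the 35 turned its direction under any alternative run. All 35 stayed called with a pseudocount of 0.01, 32 with a pseudocount of 1 or a joint fit of the 3 groups (which lost end 1 of Ints8 against WT and end 2 of Ints7 and of Slbp between the lines), 30 at an adjusted p of 0.01, and 26 of 28 with no scaling or quantile normalization. Counts moved by over 1.5 times as follows. In DIDO3ΔE16 against WT, the 3 higher ends became 0 with TPM per gene and 1 with only ends listed once, and the 1 lower end became 2 with quantile normalization and 0 with TPM per gene. In DIDO3ΔCT+HADIDO3 against WT, the 1 higher end became 0 with TPM per gene, and the 5 lower ends became 3 with no scaling, 1 with TPM per gene and 3 with only ends listed once. The 1 shift of the distal share became 2 with a pseudocount of 1 and 0 at an adjusted p of 0.01. Between the lines, 12 higher ends became 2 with TPM per gene and 7 with only ends listed once, 6 lower ends became 0 with TPM per gene, and 4 shifts became 2 at an adjusted p of 0.01. TPM per gene gives no value for a single end. Leaving out each library gave 2 to 3 higher and 1 to 2 lower ends and 2 to 3 shifts in DIDO3ΔE16 against WT, 1 to 2, 4 to 8 and 0 to 1 in DIDO3ΔCT+HADIDO3 against WT, and 8 to 12, 6 to 9 and 2 to 5 between the lines; the shift of Pabpc1 against WT was lost without WT 2-3, WT 4 or DIDO3ΔCT+HADIDO3 3, among others.

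Samples with the same replicate number did not deviate together (correlations of -0.061 to 0.029 over ends listed once). This does not show whether such samples were prepared together, and the main fits used no pairing. With a replicate block, which spends degrees of freedom, 0 ends and 0 shifts were called against WT in either line, and 22 of the 35 called values stayed called.

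Uncalled log2 values that changed sign were, in DIDO3ΔE16 against WT, end 1 of Sympk (quantile normalization -0.19, flow cell family -0.09, replicate block -0.04, leaving out libraries -0.04 to 0.07), end 1 of Pabpc1 (-0.03 to 0.03), end 1 of Ints7 (replicate block -0.0, leaving out libraries -0.02 to 0.06), end 1 of Ints8 (replicate block -0.24, leaving out libraries -0.23 to 0.50), end 2 of Ints8 (0.19 and -0.54 to 0.23), end 2 of Slbp (pseudocount 1 -0.08, quantile normalization -0.30, flow cell family -0.95, replicate block -0.87, leaving out libraries -0.82 to 0.57) and the distal share of Pabpc1 (flow cell family 0.19, leaving out libraries -0.16 to 0.04). In DIDO3ΔCT+HADIDO3 against WT they were end 2 of Wdr33 (-0.03 to 0.09), end 3 of Wdr33 (flow cell family -0.30) and end 2 of Ints7 (flow cell family -0.66, leaving out libraries -0.67 to 0.64). The cause of these changes was not tested. Depth limits low ends most: at 0.434 to 0.775 reads per base for 1 TPM, ends under 1 TPM, such as end 2 of Slbp, rest on few reads.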
